A study of Homo sapiens with 18 samples.

Results

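The comparison described here is between 2 siRNAs with the same target in 1 cell line: T24 cells transfected with siACAT1-2 against T24 cells transfected with siACAT1-1. The members were chosen by the columns of the deposited count table that carry these names, which gave 6 of the 18 libraries of the series, 3 for each siRNA, and the libraries were paired by replicate number. The series measured RNA by sequencing in 2 established human bladder cancer cell lines, T24 and UM-UC-3, each transfected with a control siRNA (siNC), siACAT1-1 or siACAT1-2. T24 is a transitional cell carcinoma line, and the labels give the genotype of all groups as wild type, so that the groups differ only in the siRNA. The siRNAs were delivered transiently with a lipid reagent (Lipofectamine), and the dose and the time between transfection and harvest are not given in the sources used here. A comparison of the siRNAs in a single line asks what they do differently, since whatever knockdown of their shared target does alike is contained in both arms.

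ACAT1 encodes the mitochondrial acetoacetyl-CoA thiolase, which acts in the use and formation of ketone bodies and in the last step of isoleucine breakdown. A siRNA loaded into an Argonaute protein cuts the RNA that is complementary along its length. The same loaded strand can also lower other RNAs through a short match of its seed, the bases near its 5′ end, mostly within 3′ untranslated regions (UTRs), and such effects differ from siRNA to siRNA because their seeds differ.

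Of the 12 lowest genes of the comparison, called protein-coding genes picked by their T24 values, 7 hold a 7-base word in their 3′ UTRs, CTAGCAA. The word is held by 7.50% of all genes with an annotated 3′ UTR and a test. This word was already known from earlier results of these data in both cell lines, so its T24 values are a description and not independent support. The sequences of the siRNAs were not used here, and no match of the word to either siRNA is stated. Only words of the ACAT1 transcript were scanned, so any word taken had to occur in ACAT1 itself. The copy there stands in the coding sequence, at chr11:108146277-108146283 on the plus strand of GRCh38, in exon 11 of 12. The following stretches are shown because they hold the word in ACAT1 and in the 3′ UTRs of genes whose RNA was lower with siACAT1-2. Each is 27 bases long, 5′ to 3′ on the RNA's strand, with the word in capitals.
ACAT1: tctggttgtaCTAGCAAacattaaaat
MTMR2: atttaagtggCTAGCAAatcagtaatt
CPD: agagagagatCTAGCAAaagctaaaac
DCTPP1: gatctggtttCTAGCAAattcccagta
NXT2: ctgcatataaCTAGCAAtaactacatt
HNRNPA0: cgtttttataCTAGCAAaatgtcttgt
CLGN: tttctaatatCTAGCAAcattatattc
CDK6: tatgtatcagCTAGCAAtatttctgtg
RPS6KB1: ggagtagacaCTAGCAAgctggacaaa
AKR1C1: gcgatattgaCTAGCAAttcatgggct

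The words of the 3′ UTRs lie at chr11:95833768-95833774 on the minus strand (MTMR2), chr17:30465559-30465565 on the plus strand (CPD), chr16:30423893-30423899 on the minus strand (DCTPP1) and chrX:109544499-109544505 on the plus strand (NXT2). Those of the next genes lie at chr5:137752855-137752861 (HNRNPA0, minus), chr4:140389113-140389119 (CLGN, minus) and chr7:92607994-92608000 (CDK6, minus). The last pair lie at chr17:59950056-59950062 (RPS6KB1, plus) and chr10:4978221-4978227 (AKR1C1, plus). HNRNPA0 and CDK6 each hold 2 copies, of which 1 is shown, and AKR1C2, a close relative of AKR1C1, has the same 27 bases around its copy at chr10:4989512-4989518 on the minus strand.

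Between 25163490 and 31769867 reads were counted on genes in each of the 6 libraries. Libraries of replicate 2 stood apart from the others in all T24 groups: along the first principal component of the 9 T24 libraries, which held 52.2% of the variance, replicate 2 of each group lay on one side and replicates 1 and 3 on the other. Mitochondrial transcripts took 3.01 to 3.54% of counted reads in the T24 libraries of replicate 2 and 4.18 to 5.28% in the others. IL6, an inflammatory cytokine, shows the size of this split, at 91.4 RPKM (reads scaled to exon length and to the library's total) in replicate 2 of siACAT1-1 against 3.34 and 5.53 in replicates 1 and 3. Of the defining urothelial markers the keratins KRT7, KRT8 and KRT18 were high, with KRT7 at 81.1 to 370.7 RPKM in the 9 T24 libraries, whereas UPK1B, KRT14 and TP63 were at or below 0.03 RPKM in all of them. The leukocyte marker PTPRC and the T cell marker CD3E were at or below 0.02 RPKM.

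ACAT1 itself was lower with siACAT1-2 than with siACAT1-1. It stood at 1.24, 1.46 and 1.17 RPKM in replicates 1, 2 and 3 of siACAT1-1 (1.29 ± 0.149, SD, n = 3) and at 0.789, 0.916 and 0.671 RPKM with siACAT1-2 (0.792 ± 0.122, SD, n = 3). The siNC libraries had 16.8, 14.6 and 17.1 RPKM, so both siRNAs left every library far below every control, and the 2 siRNA groups did not overlap. The log2 fold change between the siRNAs was -0.71 (SE 0.17), with an adjusted p of 0.0093 in edgeR's quasi-likelihood test, which treated the replicate number as a block. Without the block the adjusted p was 0.14, and it was 0.07 without replicate 1 and 0.08 without replicate 3. The gene lies at chr11:108121516-108147776 on the plus strand.

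Across all genes, 2958 of the 20144 tested (14.7%) passed an adjusted p of 0.05. RNA of 1582 genes (7.85%) was higher with siACAT1-2 and RNA of 1376 genes (6.83%) was lower, with a median size among these of 0.63 on the log2 scale. At least a 2-fold difference (a log2 fold change of 1 or more in size) was seen for 633 of them, 369 higher and 264 lower. Of the 2958 genes, 96.4% had the same sign in all 3 pairs of libraries, against 45.1% of all genes tested. The test used the same pairs, so this agreement follows in part from the calling and is not separate support. These calls rest on the pairing. In the fit without the replicate block 195 genes passed (0.968%), 81 higher (0.402%) and 114 lower (0.566%), and all 195 were among the 2958. Replicate 2 carried the smallest differences: the median difference over the genes called lower was -0.84, -0.39 and -0.62 in replicates 1, 2 and 3, and over the genes called higher it was 0.85, 0.38 and 0.78. With replicate 2 left out 3848 genes passed, with replicate 1 left out 637 and with replicate 3 left out 1095.

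The 12 genes lowest with siACAT1-2, among called protein-coding genes of the same sign in all 3 pairs and a mean of at least 1 RPKM in either siRNA group, were MTMR2, CCL20, SAA1, CPD, DCTPP1, CD83, DUSP4, GNG3, NXT2, HNRNPA0, CLGN and ARRDC3, with log2 fold changes from -2.85 to -1.63. In 11 of these 12 the 3 values of each siRNA did not overlap, but the 12 were picked by these same values. Among all 1376 genes called lower the groups did not overlap in 803. Of all genes tested, 7.04% had no overlap with siACAT1-2 below. Of the 12, 7 hold CTAGCAA in the 3′ UTR, 6 also passed without the block and 6 also passed in UM-UC-3 cells. The word is held by 7.50% of genes with an annotated 3′ UTR and a test. Without the block 0.968% of all genes tested passed, and 8.15% passed in UM-UC-3 cells. The plot of the ratios of paired libraries shows these genes beside the 12 highest.

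**Figure D1:**
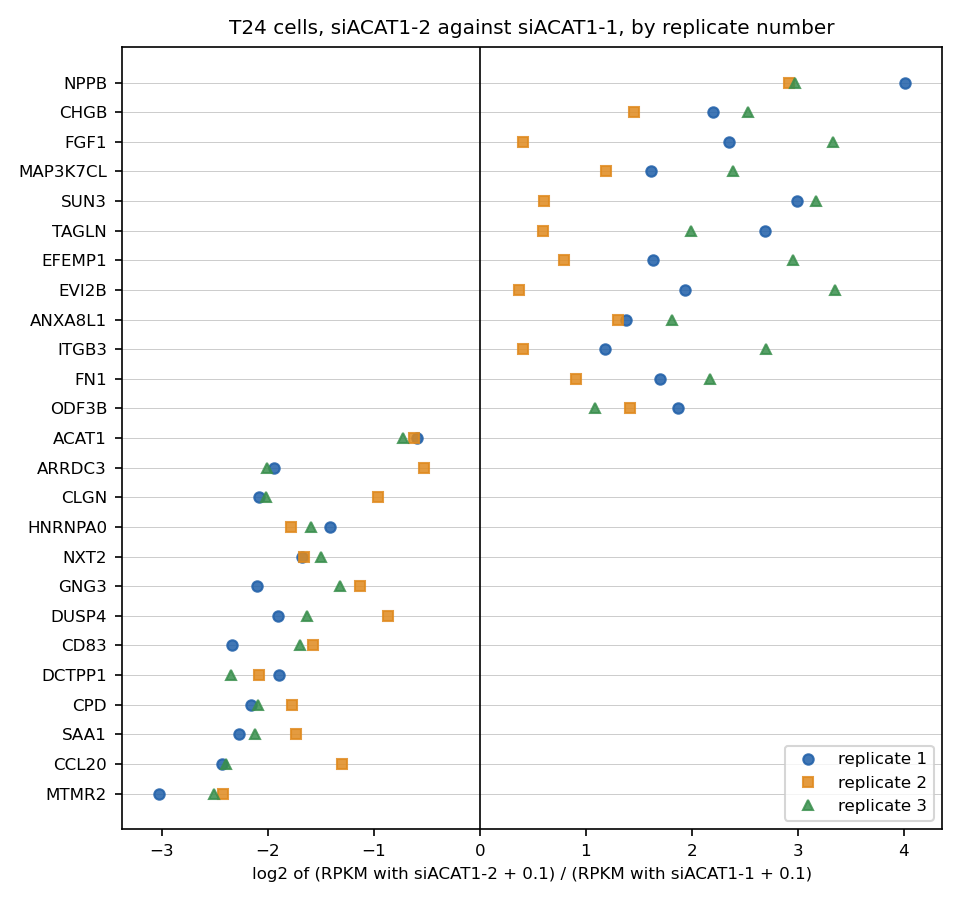
Ratio of siACAT1-2 to siACAT1-1 in T24 cells for the 12 highest genes, ACAT1 and the 12 lowest genes, as log2 of the RPKM ratio with 0.1 RPKM added to each value; circles, squares and triangles are the pairs of replicates 1, 2 and 3. All 3 pairs of every gene lie on the same side of 0, which the rule required of the 24 genes beside ACAT1, and in the higher genes the square of replicate 2 is the point nearest 0 in all but ODF3B.

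MTMR2, a phosphatase of the myotubularin family that acts on phosphoinositide lipids, was the lowest. It had 5.17, 3.15 and 3.90 RPKM with siACAT1-1 and 0.546, 0.505 and 0.602 RPKM with siACAT1-2, while siNC had 2.70, 2.20 and 2.14 RPKM. The 3 groups did not overlap, and siACAT1-2 lay below siNC and siACAT1-1 above it. The log2 fold change between the siRNAs was -2.85 (SE 0.14, adjusted p = 1.5e-10, without the block 3.9e-06).

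CPD, which encodes carboxypeptidase D, had 1.90, 2.52 and 1.76 RPKM with siACAT1-1 against 0.349, 0.669 and 0.337 with siACAT1-2. Every siACAT1-2 library was below every siACAT1-1 and siNC library, the latter at 1.68, 1.62 and 1.33 RPKM. Its log2 fold change was -2.22 (SE 0.15, adjusted p = 4.2e-08, without the block 0.00032). DCTPP1, a pyrophosphatase that clears modified dCTP from the nucleotide pool, fell from 6.45, 4.03 and 4.88 RPKM with siACAT1-1 to 1.65, 0.876 and 0.876 RPKM with siACAT1-2 (log2 fold change -2.20, SE 0.23, adjusted p = 6.1e-06). Without the block its adjusted p was 0.062, and 42.1% of its exon length is shared with ZNF771, whose reads may not be separable.

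HNRNPA0, an RNA-binding protein of the hnRNP family, had close replicates. It stood at 2.91, 2.73 and 3.26 RPKM with siACAT1-1, at 1.03, 0.724 and 1.01 RPKM with siACAT1-2 and at 3.25, 2.85 and 3.27 RPKM with siNC. Only the siACAT1-2 values stand apart among these 3 groups, and the log2 fold change was -1.69 (SE 0.14, adjusted p = 1.8e-07, without the block 0.0013). NXT2, a gene of nuclear RNA export, was likewise at 2.95, 3.92 and 2.36 RPKM with siACAT1-1 and at 0.854, 1.17 and 0.770 RPKM with siACAT1-2 (log2 fold change -1.71, adjusted p = 4.5e-05, without the block 0.022). CLGN, an endoplasmic reticulum chaperone known from testis, was the most abundant of the 12, at 146.8, 232.6 and 160.2 RPKM against 34.6, 119.7 and 39.4 RPKM. Its groups did not overlap, but both were highest in replicate 2, and the adjusted p of 9.9e-06 became 0.15 without the block.

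The other genes of the lowest 12 were immune and signalling genes. CD83, a surface protein of activated immune cells that many lines also express, was at 4.85, 4.06 and 4.36 RPKM with siACAT1-1 and at 0.876, 1.30 and 1.28 RPKM with siACAT1-2 (log2 fold change -1.95, adjusted p = 6.4e-06, without the block 0.021). DUSP4, a phosphatase that switches off MAP kinases, holds the word and had 1.50, 0.530 and 1.16 RPKM against 0.327, 0.245 and 0.308 RPKM, with siNC at 0.328, 0.323 and 0.531 RPKM. Here siACAT1-1 was the group that departed from siNC (log2 fold change 1.39, adjusted p = 0.00035).

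ARRDC3, an arrestin-domain adaptor of receptor trafficking, had 7.22, 2.33 and 6.65 RPKM with siACAT1-1 and 1.80, 1.59 and 1.58 RPKM with siACAT1-2 (adjusted p = 0.00041, without the block 0.065). The acute-phase gene SAA1, whose reads may be shared with its close paralog, had 1.26, 1.47 and 2.13 RPKM against 0.180, 0.371 and 0.411 RPKM (adjusted p = 0.017, without the block 0.16). CCL20, a chemokine, was the gene of the 12 whose groups overlapped, with 0.440, 1.98 and 0.917 RPKM against 0, 0.740 and 0.0937 RPKM, and its adjusted p of 0.015 became 0.52 without the block and reached 0.14 without replicate 3. GNG3, a G protein gamma subunit, shares 50.7% of its exon length with BSCL2, and its values were 1.34, 0.827 and 1.22 RPKM against 0.234, 0.322 and 0.428 RPKM (adjusted p = 0.0089, up to 0.15 without replicate 1).

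By the same rule, the 12 genes highest with siACAT1-2 were NPPB, CHGB, FGF1, MAP3K7CL, SUN3, TAGLN, EFEMP1, EVI2B, ANXA8L1, ITGB3, FN1 and ODF3B, with log2 fold changes of 1.62 and above. Their counts stand beside those of the lowest genes. The word is held by 1 of them (FGF1), 4 passed without the block and 1 passed in UM-UC-3 cells (CHGB). The matching shares over all genes, given above, are 7.50%, 0.968% and 8.15%. In 8 of the 12 genes the groups did not overlap, though these genes too were picked by the same values. Among all 1582 genes called higher the groups did not overlap in 810. Of all genes tested, 7.74% had no overlap with siACAT1-2 above.

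NPPB, the precursor of the natriuretic peptide BNP, had 0.106, 0.191 and 0.115 RPKM with siACAT1-1 and 3.22, 2.10 and 1.59 RPKM with siACAT1-2, with siNC at 0.795, 0.307 and 0.103 RPKM. All siACAT1-2 libraries were above all others (2.30 ± 0.837 against 0.137 ± 0.0467 RPKM with siACAT1-1, SD, n = 3, adjusted p in edgeR's test 0.00063, without the block 0.042). FN1, which encodes the matrix protein fibronectin, was the most abundant of the 12, at 10.3, 5.94 and 7.04 RPKM with siACAT1-1, 33.8, 11.2 and 32.1 RPKM with siACAT1-2 and 16.1, 10.5 and 16.2 RPKM with siNC. Its log2 fold change was 1.63 (SE 0.16, adjusted p = 4.9e-06, without the block 0.024), and siACAT1-1 lay below siNC (-0.87, adjusted p = 0.0014) and siACAT1-2 above it (0.77, adjusted p = 0.0049).

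TAGLN, an actin-binding protein of smooth muscle and stromal cells, had 2.08, 5.66 and 1.80 RPKM with siACAT1-1 and 13.9, 8.61 and 7.45 RPKM with siACAT1-2 (adjusted p = 0.00015, without the block 0.058). MAP3K7CL was at 0.329, 0.546 and 0.194 RPKM against 1.21, 1.37 and 1.44 RPKM (log2 fold change 1.99, adjusted p = 6.7e-05, without the block 0.023). ITGB3, the beta 3 integrin subunit, was at 0.353, 0.407 and 0.172 RPKM against 0.924, 0.574 and 1.66 RPKM, and 51.6% of its exon length is shared with RP11-290H9.2. Its adjusted p was 0.003 with the block, 0.04 without it and 0.081 without replicate 3.

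The growth factor FGF1 and the extracellular matrix gene EFEMP1 passed against siNC with siACAT1-1, and did not with siACAT1-2. FGF1 had 0.798, 1.39 and 0.196 RPKM with siACAT1-1, 4.50, 1.87 and 2.88 RPKM with siACAT1-2 and 2.94, 2.79 and 1.38 RPKM with siNC. Against siNC its log2 fold change was -1.61 with siACAT1-1 (adjusted p = 0.0065) and 0.50 with siACAT1-2 (adjusted p = 0.41). For EFEMP1 the same values were -1.69 (adjusted p = 0.0014) and 0.12 (adjusted p = 0.86). In SUN3, CHGB and ANXA8L1 replicate 2 was the one that differed in level. SUN3 had 4.29 RPKM in replicate 2 of siACAT1-1 and at most 0.0853 RPKM in replicates 1 and 3, CHGB had 2.02 against at most 0.212 RPKM, and ANXA8L1 had 0.240 against at least 0.991 RPKM. Their adjusted p with the block was 0.0094, 1.3e-05 and 4.5e-05, and without it 0.77, 0.41 and 0.42.

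Genes with CTAGCAA in the 3′ UTR were lower with siACAT1-2 as a group. Of 12944 genes with an annotated 3′ UTR and a test, 971 (7.50%) hold the word. The word was taken as the one with the lowest difference of medians between genes that hold and lack it in UM-UC-3 cells (-0.19), and is read here in T24 cells. The median log2 fold change of the genes that hold it was -0.18, against 0.04 for the genes that lack it, a difference of -0.21. The scan took words from the ACAT1 transcript only. Among its 1390 words of 7 bases held by at least 100 genes, this was the lowest difference in T24 cells. The next word, TAGCAAA, which overlaps it by 6 bases, had -0.17, and the median over these 1390 words was -0.07. The difference was -0.31, -0.15 and -0.15 in the pairs of replicates 1, 2 and 3.

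**Figure D2:**
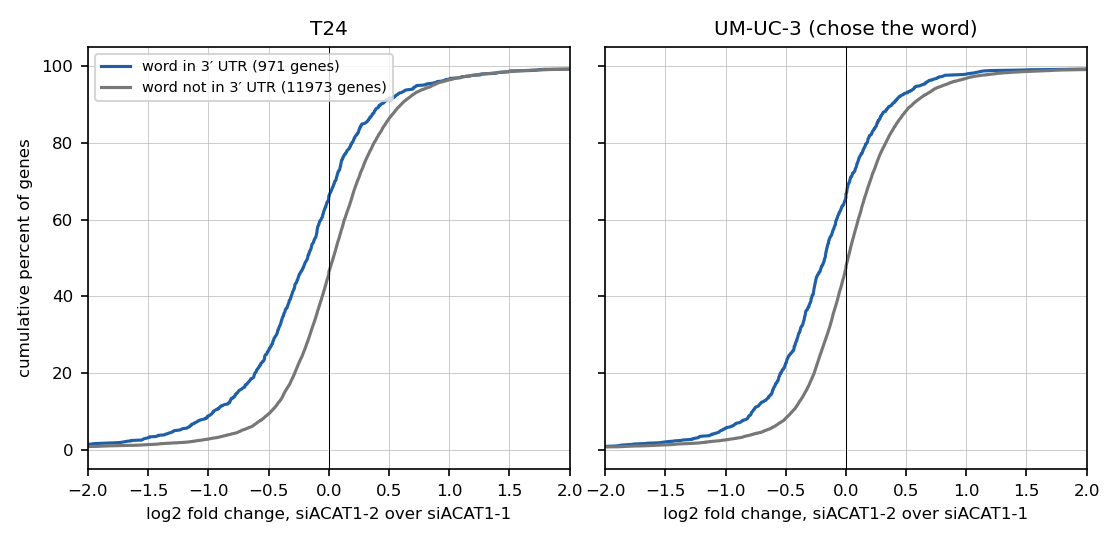
Cumulative percent of genes (vertical axis) by log2 fold change of siACAT1-2 over siACAT1-1 (horizontal axis, drawn from -2 to 2) in T24 cells (left panel) and UM-UC-3 cells (right panel), for the 971 genes that hold CTAGCAA in the 3′ UTR (blue) and the genes that lack it (grey). The blue curve lies to the left in each panel, with T24 medians of -0.18 and 0.04.

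Calls followed the same split. Of the genes that hold the word, 24.8% were called lower and 5.25% higher, and of those that lack it 7.37% were lower and 9.94% higher. Among the 1123 genes of this set called lower, 241 (21.5%) hold the word, and among the 1241 called higher 51 (4.11%) do. Where the difference was at least 2-fold lower, 57 of 173 genes (32.9%) hold it.

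UTR length differed between these groups, with a median of 3551 bases in genes that hold the word and 1198 bases in those that lack it. Within 4 classes of UTR length of equal size the difference of medians was -0.36 in the shortest (31 genes hold the word), -0.19 in the second (87 genes), -0.24 in the third (241 genes) and -0.13 in the longest (612 genes). It was negative in each class. The 8-base word CTAGCAAA had a difference of -0.27. Against siNC the genes that hold the word had a median of -0.10 with siACAT1-2 (0.03 for those that lack it) and 0.08 with siACAT1-1 (0.01). These 2 comparisons share the siNC libraries.

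Holders of the word with known roles in growth and signalling were found beyond the lowest 12. CDK6, the kinase that pairs with D-type cyclins to start the cell cycle, had 3.14, 2.10 and 2.39 RPKM with siACAT1-1 and 1.14, 0.924 and 0.973 RPKM with siACAT1-2, without overlap (log2 fold change -1.31, SE 0.15, adjusted p = 1.8e-05, without the block 0.013). RPS6KB1, the S6 kinase downstream of mTOR, had 5.31, 3.67 and 4.89 RPKM against 2.40, 1.93 and 2.79 RPKM (log2 fold change -0.95, adjusted p = 7.9e-05, without the block 0.026). Its groups did not overlap either. JKAMP, a membrane protein of the endoplasmic reticulum chosen after its values were seen, had 2.78, 2.33 and 2.35 RPKM against 0.752, 1.19 and 0.637 RPKM (log2 fold change -1.54, adjusted p = 5.1e-05, without the block 0.0045). MDM2 and the cyclin CCND1, which hold the word too, went the other way and are given with the p53 targets and the cyclins.

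NRF2 target genes made up the list with the largest share of calls. NRF2 (gene NFE2L2) is a transcription factor that is held down by KEAP1 and, when released, switches on genes for glutathione synthesis, NADPH supply and detoxification through antioxidant response elements. Of the 25 tested genes of this list, which holds NFE2L2 and KEAP1 beside the targets, 17 (68.0%) were lower with siACAT1-2, 0 were higher, and the median log2 fold change was -0.81, against 14.7% called and a median of 0.03 over all genes tested. Without the block 2 of them passed, GCLC and ME1. The medians in the pairs of replicates 1, 2 and 3 were -1.02, -0.27 and -0.90, and 3 were called lower without replicate 1, 18 without replicate 2 and 8 without replicate 3. In 5 of the 17 the groups did not overlap, while among all 1376 genes called lower this held for 803.

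**Figure D3:**
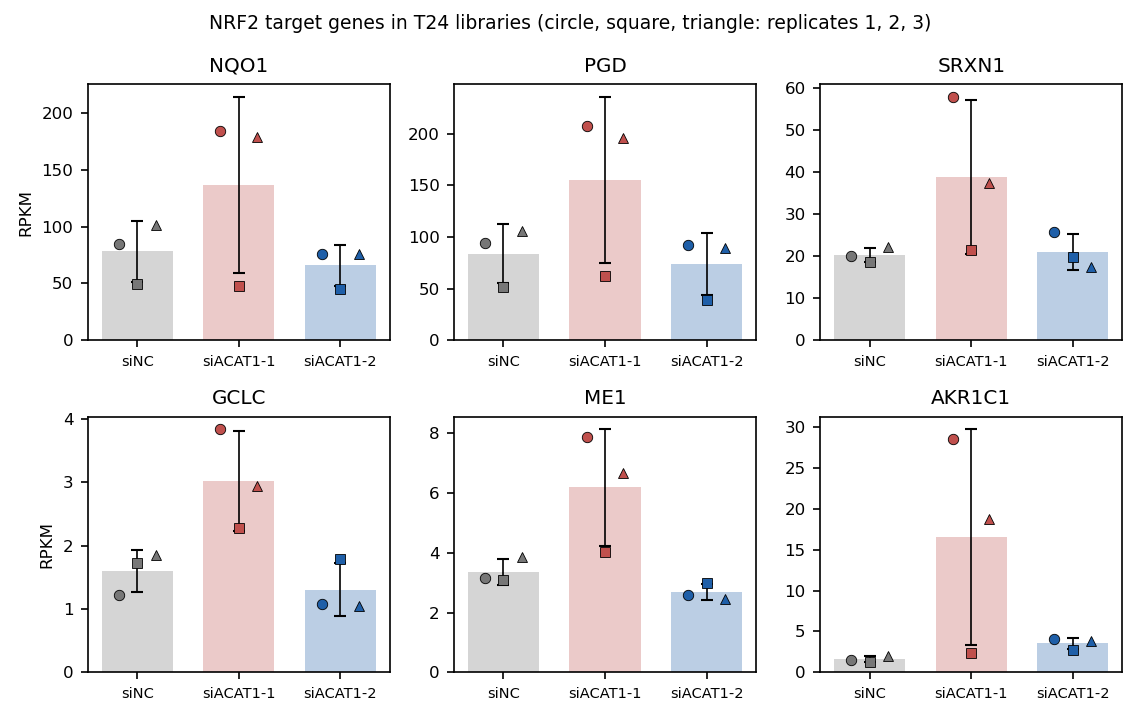
RPKM (linear axis from 0) of 6 NRF2 target genes in T24 cells by siRNA, with bars for the mean, error bars for the SD (n = 3) and circles, squares and triangles for replicates 1, 2 and 3. Replicates 1 and 3 of siACAT1-1 lie above every library of the other groups in all 6 genes, while its replicate 2 lies at 47.4 RPKM for NQO1 and 2.41 RPKM for AKR1C1, near the others.

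Glutathione genes came first among them. GCLC, the catalytic subunit of the enzyme that starts glutathione synthesis, had 3.85, 2.28 and 2.95 RPKM with siACAT1-1, 1.07, 1.79 and 1.06 RPKM with siACAT1-2 and 1.23, 1.74 and 1.85 RPKM with siNC. All siACAT1-1 libraries were above the other 6, and the log2 fold change was -1.23 (SE 0.20, adjusted p = 0.00049, without the block 0.042). Its partner subunit GCLM had 8.76, 4.88 and 4.96 RPKM against 4.79, 3.83 and 4.01 RPKM (log2 fold change -0.51, adjusted p = 0.024, without the block 0.36 and without replicate 1 0.29). SLC7A11, the cystine importer, had 13.5, 9.43 and 13.6 RPKM against 2.59, 4.30 and 5.95 RPKM (log2 fold change -1.60, adjusted p = 0.0028, without the block 0.47). Its antisense RNA SLC7A11-AS1, which overlaps it, was lower as well (-1.92, adjusted p = 0.0015, without the block 0.39), and the strand setting of the counting is not given in the sources used here.

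Enzymes of NADPH supply and the pentose phosphate pathway were measured as well. PGD, of the pentose phosphate pathway, had 207.4, 62.2 and 195.7 RPKM with siACAT1-1 and 92.0, 39.2 and 89.6 RPKM with siACAT1-2, lower in each pair though the groups overlap (log2 fold change -0.99, SE 0.13, adjusted p = 5.2e-05, without the block 0.27). ME1, the cytosolic malic enzyme, had 7.86, 4.03 and 6.66 RPKM against 2.60, 2.99 and 2.47 RPKM with no overlap (log2 fold change -1.16, adjusted p = 0.00036, without the block 0.03). TALDO1, of the same pentose phosphate pathway, had -0.43 (adjusted p = 0.022, without the block 0.55), and TKT, of that pathway too, had -0.16 (adjusted p = 0.33).

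Detoxifying enzymes followed. NQO1, a quinone reductase, had 184.2, 47.4 and 178.7 RPKM with siACAT1-1, 76.2, 44.9 and 76.0 RPKM with siACAT1-2 and 84.7, 49.0 and 101.6 RPKM with siNC. In replicate 2 all 3 groups lay between 44.9 and 49.0 RPKM, whereas in replicates 1 and 3 siACAT1-1 was the highest (log2 fold change -0.88, adjusted p = 0.0017, without the block 0.24). AKR1C1, an aldo-keto reductase, showed the same split, with 28.5, 2.41 and 18.7 RPKM against 4.02, 2.80 and 3.83 RPKM. In replicate 2 its siACAT1-2 value was the higher one. Its log2 fold change of -1.86 had an adjusted p of 0.0019, 0.061 without the block and 0.086 without replicate 1, and reads of AKR1C1, AKR1C2 and AKR1C3 may be shared among these close paralogs. AKR1C1 and AKR1C2 hold CTAGCAA as well. SRXN1, sulfiredoxin, had 57.8, 21.3 and 37.4 RPKM against 25.8, 19.8 and 17.4 RPKM (adjusted p = 0.0037, without the block 0.18), and 85% of its exon length is shared with an overlapping gene.

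The targets that did not pass included TXNRD1, thioredoxin reductase, at 188.3, 216.1 and 149.7 RPKM against 182.6, 159.7 and 207.8 RPKM (log2 fold change -0.01, adjusted p = 0.99). HMOX1, heme oxygenase, had a log2 fold change of 0.51 (adjusted p = 0.39). Transcripts of the regulators themselves did not pass either, with -0.30 for NFE2L2 (adjusted p = 0.16) and 0.03 for KEAP1 (adjusted p = 0.92). Against siNC, 14 of the 25 genes passed as higher with siACAT1-1 and 0 as lower (6.59% and 7.31% of all genes tested), with a median of 0.67, while with siACAT1-2 3 were higher and 1 was lower (4.55% and 3.93%), with a median of 0.01.

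Antioxidant response elements share a core, TGACNNNGC, where N is any base. It was searched on both strands in RefSeq promoters (GRCh38.p14, 250 bases before to 50 after the start of each gene). The core is held by 5 (26.3%) of the 19 listed genes with a promoter there, against 4384 of all 27305 genes with a promoter there (16.1%). A gene with several promoters was counted once, as holding the core if any of them does. Among genes lower with siACAT1-2 these were PGD (promoter chr1:10398814-10399113, plus), GCLM (chr1:93909381-93909680, minus) and ME1 (chr6:83431002-83431301, minus), and the other two listed genes were TXNRD1 and KEAP1, which did not pass. The 29 bases around a core are given for the first 3, 5′ to 3′ on the gene's strand, with the core in capitals. A match is a description of letters and does not mark a bound site.
PGD: cctcgccgggGCAATGTCAtctaggtgct
GCLM: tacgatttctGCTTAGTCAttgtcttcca
ME1: tctcctgccaTGACTCAGCgcttctcgca

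Genes of branched-chain amino acid breakdown, the pathway ACAT1 belongs to, were called more often lower than higher with siACAT1-2. Of 23 tested, 7 were lower and 1 was higher (6.83% and 7.85% of all genes tested), with a median of -0.16, and 2 passed without the block, both lower. Without replicate 1 there were 4 lower, without replicate 2 there were 8, and without replicate 3 there were 3. HSD17B10, which acts just before ACAT1 in isoleucine breakdown, had 49.6, 32.8 and 62.2 RPKM with siACAT1-1 and 27.1, 21.5 and 22.1 RPKM with siACAT1-2 (48.9% of the siACAT1-1 mean, adjusted p = 0.00032, without the block 0.032). AUH, of leucine breakdown, had 8.16, 10.3 and 13.9 RPKM against 4.62, 5.66 and 6.89 RPKM (log2 fold change -0.90, adjusted p = 0.00021, without the block 0.037). The groups did not overlap in either gene. BCKDHA, BCKDHB and DBT, subunits of the branched-chain ketoacid dehydrogenase, had -0.75, -0.80 and -0.59 (adjusted p = 0.0053, 0.0066 and 0.035, without the block 0.13, 0.17 and 0.31). BCKDK, the kinase that switches this complex off, was the gene that was higher (0.51, adjusted p = 0.0499).

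Among the other thiolases ACAA2, of mitochondrial fatty acid oxidation, was higher, at 1.62, 2.52 and 2.08 RPKM against 3.87, 3.68 and 4.01 RPKM without overlap (log2 fold change 0.92, adjusted p = 0.00036, without the block 0.026). SLC16A7, a monocarboxylate carrier counted with the ketone body genes, was lower (-1.09, adjusted p = 0.00079, without the block 0.029). Of 38 complex I genes 0 were higher and 2 lower (5.26% called, against 14.7% of all genes tested). Of 13 genes of the mitochondrial genome 0 passed in edgeR's test with or without the block or in DESeq2, and 0 had an unadjusted p under 0.05.

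**Figure D4:**
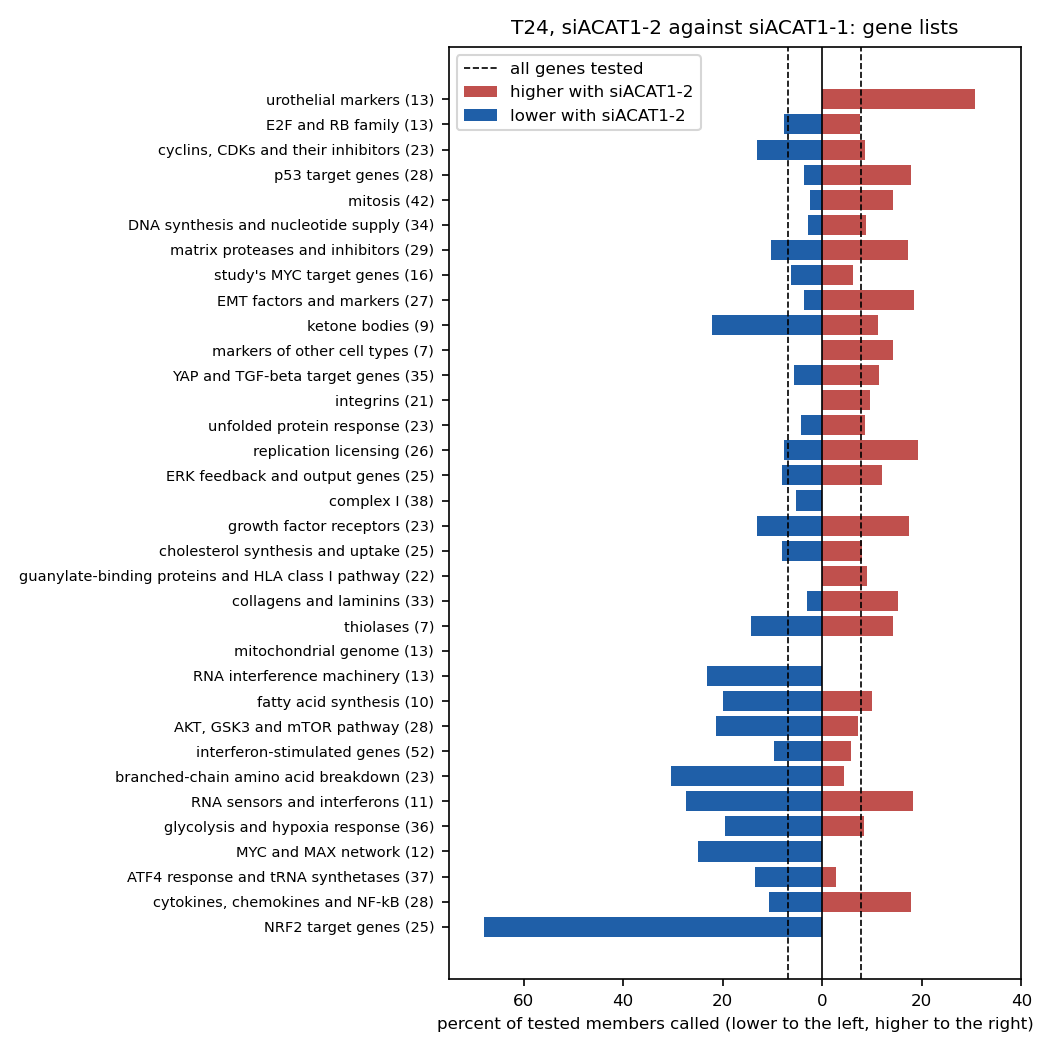
Percent of the tested members of each gene list called lower (blue, to the left) and higher (red, to the right) with siACAT1-2 against siACAT1-1 in T24 cells, with the number tested in brackets, lists ordered by their median log2 fold change and dashed lines at 6.83% and 7.85%, the shares over all genes tested. NRF2 targets have the longest bar, 68.0% lower.

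Genes of glycolysis and the hypoxia response had 3 of 36 higher and 7 lower, with a median of -0.18 and 0 passing without the block. This was 27.8% called, against 14.7% of all genes tested. The lowest were CA12, a carbonic anhydrase (-1.88, adjusted p = 6.5e-05, without the block 0.14), ALDOC, an aldolase (-1.85, adjusted p = 0.0067, without the block 0.16), and MXI1, a MYC antagonist (-1.25, adjusted p = 0.00059, without the block 0.18), while TPI1, a core glycolytic enzyme, was higher (0.41, adjusted p = 0.02, without the block 0.53). The angiogenic factor VEGFA had 4.64, 13.5 and 12.5 RPKM against 2.22, 9.91 and 6.19 RPKM, lower in each pair with overlapping groups (-0.86, adjusted p = 0.0023, without the block 0.63). Targets of the amino acid stress factor ATF4 had 1 of 37 higher and 5 lower (16.2% called), with a median of -0.19. Among the lower were SLC7A11, DDIT4 (-1.21, adjusted p = 0.0016, without the block 0.52) and PSAT1 (-1.17, adjusted p = 0.0017, without the block 0.29).

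For the AKT, GSK3 and mTOR pathway, which the study examined, 2 of 28 genes were higher and 6 lower, with a median of -0.06. This was 28.6% called, against 14.7% of all genes tested. RPS6KB1 was the gene that also passed without the block. The negative regulators TSC1 and TSC2 were among the lower genes (-0.58 and -0.44, adjusted p = 0.0033 and 0.014, without the block 0.095 and 0.32). AKT1 and GSK3B were at 0.02 and -0.01 (adjusted p = 0.95 and 0.99). In the MYC and MAX network 0 of 12 were higher and 3 lower (25% called), including FBXW7, a ubiquitin ligase subunit that targets MYC (-0.72, adjusted p = 0.0016, without the block 0.046). MYC itself had 11.4, 27.6 and 14.8 RPKM against 9.79, 19.7 and 11.3 RPKM and did not pass (-0.35, adjusted p = 0.32). A list of 16 MYC target genes was chosen from these same samples and so is not independent evidence. In it 1 gene was higher (TCOF1, 0.73, adjusted p = 0.013) and 1 lower (DCTPP1).

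Cell division genes were called at shares from below to above that of all genes tested. Of 42 mitosis genes 6 were higher and 1 lower with siACAT1-2 (16.7% called, against 14.7% of all genes tested), with a median of 0.19 and 0 passing without the block. The higher ones included AURKB, a mitotic kinase (0.77, adjusted p = 0.016), and PTTG1, securin (0.76, adjusted p = 0.0067). The pair medians were 0.34, -0.25 and 0.46, so replicate 2 went the other way, and without it 22 were higher and 1 lower. Without replicate 1 there were 0 higher and 0 lower, and without replicate 3 there were 1 higher and 1 lower. Against siNC 41 of the 42 were lower with siACAT1-1 (7.31% of all genes tested), with a median of -0.81, and 29 with siACAT1-2 (3.93%), with a median of -0.60.

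Replication licensing had 5 of 26 higher and 2 lower (26.9% called), and DNA synthesis 3 of 34 higher and 1 lower (11.8%), the lower one being DCTPP1. Without the block 0 genes passed in either list. For replication licensing the pair medians were 0.06, -0.11 and 0.47. Leaving out replicate 1 gave 0 higher and 0 lower in that list, replicate 2 gave 9 and 1, and replicate 3 gave 0 and 1. Among cyclins, CDKs and their inhibitors 2 of 23 were higher and 3 lower (21.7%), and without the block 0 were higher and 1 lower. CCND3, a D-type cyclin, had 1.38, 0.960 and 0.767 RPKM with siACAT1-1 and 3.27, 1.57 and 2.36 RPKM with siACAT1-2 without overlap (1.20, adjusted p = 0.00028, without the block 0.31), CCND1 was higher by 0.56 (adjusted p = 0.0059, without the block 0.43), and the CDK inhibitor CDKN1B was lower (-0.80, adjusted p = 0.00075, without the block 0.12). Of the 28 p53 targets 5 were higher and 1 lower (21.4% called, against 14.7% of all genes tested), with a median of 0.20. MDM2, which degrades p53, had 1.24, 1.50 and 1.32 RPKM against 2.67, 2.07 and 3.08 RPKM without overlap, and siNC stood at 3.10, 2.69 and 3.57 RPKM, near siACAT1-2 (0.93, adjusted p = 0.00053, without the block 0.082).

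EMT genes, those of the shift from epithelial to mesenchymal state, had 5 of 27 higher and 1 lower, with a median of 0.15. This was 22.2% called, against 14.7% of all genes tested. Alongside FN1, VIM (vimentin) had 139.2, 137.6 and 185.6 RPKM with siACAT1-1 and 328.3, 193.6 and 324.6 RPKM with siACAT1-2 without overlap (0.86, SE 0.12, adjusted p = 0.00014, without the block 0.063). CDH2 (N-cadherin) had 9.28, 4.59 and 7.27 RPKM against 17.9, 7.83 and 16.3 RPKM (0.97, adjusted p = 2.8e-05, without the block 0.15). ZEB2, a mesenchymal transcription factor, and JUP, a junction protein of epithelial cells, were higher too (0.83 and 1.51, adjusted p = 0.00024 and 0.0043, without the block 0.29 and 0.12).

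Matrix proteases and inhibitors had 5 of 29 higher and 3 lower (27.6% called, against 14.7% of all genes tested). MMP15, a membrane-type metalloprotease, was higher at a low level (2.03, adjusted p = 0.00074, without the block 0.046). Collagens and laminins had 5 of 33 higher and 1 lower (18.2% called) and integrins 2 of 21 higher and 0 lower (9.52%). YAP and TGF-beta targets had 4 of 35 higher and 2 lower (17.1%).

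Immune lists held calls in both directions. Of 52 interferon-stimulated genes 3 were higher and 5 lower, with a median of -0.09, and 1 of them passed without the block. This was 15.4% called, near the 14.7% of all genes tested. Against siNC 16 of them were higher with siACAT1-1 (6.59% of all genes tested) and 11 with siACAT1-2 (4.55%), and 0 were lower with either. RNA sensors and interferons had 2 of 11 higher and 3 lower (45.5% called), with a median of -0.16 and 0 passing without the block. Without replicate 1 there were 0 higher and 0 lower, and the median was 0.01. Without replicate 2 there were 3 higher and 3 lower, and without replicate 3 there were 0 higher and 1 lower. Guanylate-binding proteins and HLA class I genes had 2 of 22 higher and 0 lower (9.09%). The RNA interference machinery had 0 of 13 higher and 3 lower (23.1%), with DICER1, which cuts small RNA precursors, at -0.83 (adjusted p = 0.00047, without the block 0.18). Cytokine and NF-kB genes had 5 of 28 higher and 3 lower (28.6%). Without the block 0 genes passed in this list and 0 in the RNA interference machinery. IL1B, an inflammatory cytokine, had 13.6, 193.2 and 26.9 RPKM against 28.1, 290.8 and 100.5 RPKM, higher in each pair with groups that overlap because replicate 2 was far above the others (1.22, adjusted p = 0.00066, without the block 0.80).

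Urothelial markers had 4 of 13 higher and 0 lower (30.8% called, against 14.7% of all genes tested). The higher ones were the keratins KRT19 (1.04), KRT8 (0.52), KRT7 (0.39) and KRT18 (0.35), with adjusted p of 0.00035, 0.002, 0.042 and 0.03 and, without the block, 0.68, 0.7, 0.83 and 0.67. Exons of KRT8 and KRT18 overlap. Among 7 tested markers of other cell types 1 (14.3%) was higher, CD68, at 18.6, 153.8 and 21.2 RPKM against 36.6, 168.8 and 41.5 RPKM (0.71, adjusted p = 0.0022, without the block 0.92). The summed level of the other-cell markers was 22.9 to 158.3 RPKM with siACAT1-1 and 42.4 to 172.7 RPKM with siACAT1-2. Their part in the other results was not tested.

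Relative to siNC, the differences came from both sides. Among the 1582 genes higher with siACAT1-2, 578 passed against siNC with siACAT1-1 and not with siACAT1-2, 327 with siACAT1-2 and not with siACAT1-1, 36 with both and 641 with neither. Their median was -0.42 with siACAT1-1 and 0.27 with siACAT1-2. Among the 1376 lower genes these counts were 443, 279, 45 and 609, with medians of 0.34 and -0.26. The siNC libraries are shared by both comparisons, so these counts are given side by side only. Over all genes tested, 2799 (13.9%) passed against siNC with siACAT1-1 and 1708 (8.48%) with siACAT1-2.

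The same siRNAs were compared in UM-UC-3 cells, in libraries that share none with T24. There 1642 genes passed (8.15%), 731 higher and 911 lower. Of these 684 also passed in T24 cells, which is 23.1% of the T24 calls and 41.7% of the UM-UC-3 calls. The direction was the same for 656 of them, 368 lower and 288 higher, and opposite for 28. Of all 2958 T24 calls 81.8% had the same sign in UM-UC-3 cells, against 62.3% of all genes tested. Across all 20144 genes, which are not independent replicates, the log2 fold changes of the 2 lines had r = 0.16.

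**Figure D5:**
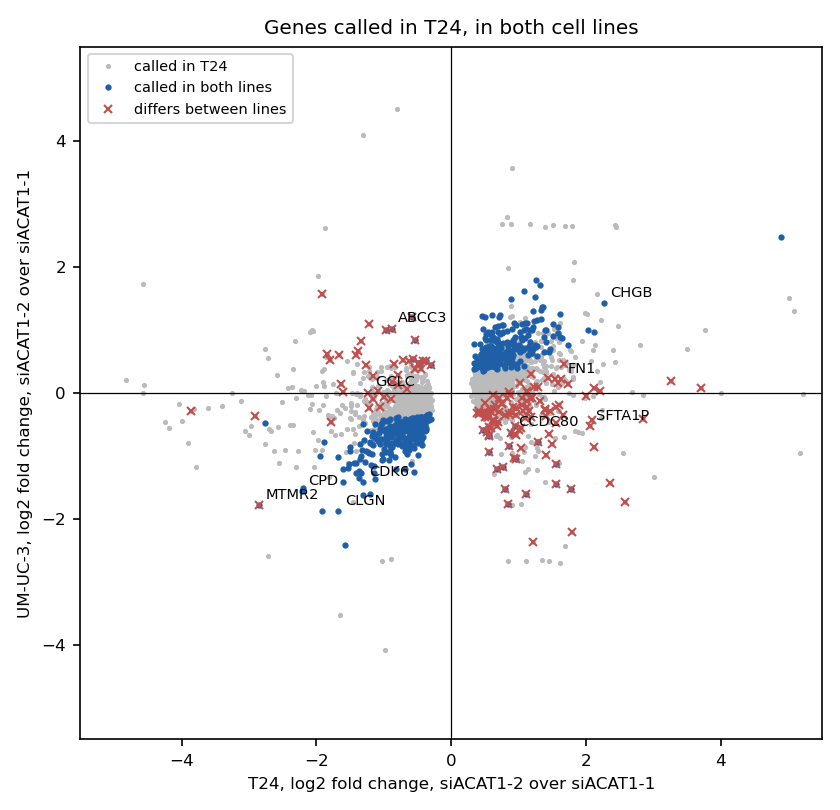
Log2 fold change of siACAT1-2 over siACAT1-1 in T24 cells (horizontal axis) and in UM-UC-3 cells (vertical axis) for 2953 of the genes called in T24, with 1 gene outside the axes; blue points were called in both lines and red crosses differed between them. MTMR2, CPD and CLGN lie low in both lines, and CCDC80 lies on opposite sides of 0.

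MTMR2, CPD, DCTPP1 and CLGN were low in both lines, and all 4 hold the word. In UM-UC-3 cells MTMR2 had 6.48, 6.04 and 5.70 RPKM with siACAT1-1 and 1.78, 1.97 and 1.71 RPKM with siACAT1-2 (-1.78, adjusted p = 1.7e-07), a smaller difference than in T24 cells by 1.07 on the log2 scale (adjusted p = 0.0093 for the difference between lines). CPD had -1.56 in UM-UC-3 cells (adjusted p = 5.4e-06), DCTPP1 -1.50 (adjusted p = 0.0014) and CLGN -1.87 (adjusted p = 9.9e-06). CHGB was higher in both lines (1.43 in UM-UC-3 cells, adjusted p = 0.00041). The long noncoding RNAs SLC7A11-AS1 and RP11-54A9.1 were lower in both (-1.88 and -2.41 in UM-UC-3 cells, adjusted p = 0.01 and 0.049), and HMCN2, the remaining gene named by the same rule, was near 0 RPKM in all T24 libraries. NXT2 could not be compared, since all 6 UM-UC-3 libraries with an ACAT1 siRNA are listed at 0 RPKM for it. ACAT1 was lower with siACAT1-2 there too (-0.54, adjusted p = 0.035).

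A test of the difference between lines passed for 221 genes (1.1%), of which 147 were among the T24 calls (4.97% of them). CCDC80, a secreted matrix protein, was among them. It was higher with siACAT1-2 in T24 cells, with 3.44, 1.27 and 1.54 RPKM against 5.12, 2.46 and 3.38 RPKM (0.89, adjusted p = 0.00011, without the block 0.46), and lower in UM-UC-3 cells, with 14.5, 16.9 and 8.15 RPKM against 8.66, 10.7 and 6.29 RPKM (-0.63, adjusted p = 0.0037). Replicates of the siRNA groups overlapped in each line, and the difference between lines had an adjusted p of 0.00016.

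Of the 25 genes of the NRF2 list 5 differed between the lines, all toward lower values in T24 cells, against 0.328% of all genes tested. Without the replicate block 0 genes of any kind passed this test of the difference between lines. In UM-UC-3 cells 2 of the 25 were higher and 1 lower with siACAT1-2 (3.63% and 4.52% of all genes tested), with a median of 0.01. NQO1 there had 33.0, 38.5 and 32.8 RPKM with siACAT1-1 and 40.5, 45.1 and 35.6 RPKM with siACAT1-2 (0.18, adjusted p = 0.56), and PGD had 41.3, 43.4 and 30.4 RPKM against 44.1, 41.8 and 28.3 RPKM (-0.06, adjusted p = 0.85). The group ranges overlapped for both genes in UM-UC-3 cells.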

How the data were processed

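RNA of T24 and UM-UC-3 cells (2 cell lines, 6 groups, 3 libraries each) was sequenced. Per the labels and methods, the authors trimmed reads with Trimmomatic 0.36, aligned them to GRCh38 with STAR 2.5.3 and counted them on gene exons with featureCounts (Subread 1.5.1). They deposited raw counts for 39496 genes and RPKM values calculated from them. The annotation release, strand setting and collapse of molecular identifiers are not given in the sources used here. The siRNA sequences were not used here.

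The deposited counts were tested with edgeR 4.0.16 in R 4.3.3 (TMM scaling, filterByExpr by group, quasi-likelihood test, Benjamini-Hochberg adjustment, threshold 0.05), in 1 fit of all 18 libraries with a coefficient per group and, inside each cell line, the replicate number as a block. Libraries are labelled as biological replicates. The series says that 3 independent experiments were done, but nothing says whether a number marks one of them. Pairing by number was part of how the comparison was defined. Deviations from group means correlated at 0.356 to 0.686 in the 9 T24 pairs of the same number and at -0.567 to 0.210 in 18 pairs of other numbers (UM-UC-3: 0.115 to 0.576 and -0.545 to 0.269). Deviations cancel within each group, which pushes correlations of other numbers down where those of the same number are high. Results are also given without the block. Levels are deposited RPKM, with SD over 3 libraries.

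Named were ACAT1, the 12 lowest and 12 highest called protein-coding genes with the same sign in all 3 pairs and a group mean of at least 1 RPKM, members of 34 gene lists, genes called in both lines or differing between them, and the lowest genes holding the 3′ UTR word. The members and lists were chosen with earlier results of these data known. UTRs came from GENCODE 44 and promoters from RefSeq. Alternatives were DESeq2 1.42.0, another scaling (RLE), no filter, a filter of 1 RPKM, fewer libraries in the fit, no block and each library or pair left out. Gene names that had become dates (26) were not named, and some genes that the rule names are not reported here.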

Additional observations from a re-analysis of the deposited data

Results flagged for a closer look

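Results are collected here where the difference between siACAT1-2 and siACAT1-1 itself differed between T24 and UM-UC-3 cells, tested as a contrast of the contrasts with edgeR's quasi-likelihood test. This held for 221 genes. Toward higher values in T24 cells the differences (T24 minus UM-UC-3, log2) were 1.52 for CCDC80, 1.97 for ST3GAL1, 2.59 for the long noncoding RNA SFTA1P and 2.71 for the pseudogene MYH16. ST3GAL1, a sialyltransferase, was at 0.94 in T24 cells and at -1.04 in UM-UC-3 cells (adjusted p = 0.0012 and 0.0016). SFTA1P did not pass in UM-UC-3 cells (-0.53, adjusted p = 0.11). Toward lower values in T24 cells they were -1.80 for DNM1, a dynamin of endocytosis, and, among the NRF2 targets, -1.06 for NQO1, -1.23 for GCLC, -0.94 for PGD, -1.06 for ME1 and -1.91 for ABCC3, an exporter of conjugates. ABCC3 passed in both lines in opposite directions (-0.89 and 1.02, adjusted p = 0.0038 and 0.0033). DNM1 had an adjusted p of 0.012 in T24 cells that reached 0.26 without replicate 1. Without the replicate block the T24 values of ST3GAL1, ABCC3 and DNM1 had adjusted p of 0.52, 0.46 and 0.73. Without the replicate block the difference between lines passed for 0 genes in the same test (834 at an unadjusted p under 0.05), and DESeq2 with the block called 549.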

How the results depend on the processing

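The pairing decided the counts. Without the replicate block 195 genes passed in place of 2958 in T24 cells (2608 had an unadjusted p under 0.05), 10 in place of 1642 in UM-UC-3 cells and 0 in place of 221 for the difference between lines (834 unadjusted). In T24 cells 1802 passed when only the 6 libraries were fitted, 633 with a 2-fold minimum, and 637 to 3848 with replicates or single libraries left out; the count fell by over 1.5 times without replicate 1 (637) or 3 (1095) and without replicate 1 (993) or 3 (1339) of siACAT1-1 or 1 (1087) or 3 (1716) of siACAT1-2. DESeq2 called 3327. For the difference between lines DESeq2 called 549 and the fit without a filter on low counts 750. The difference of medians for CTAGCAA stayed between -0.27 and -0.18 in every fit, an alternative chosen after seeing the data. Of 981 refits of named genes 803 kept their side of the threshold, 171 lost it and 7 gained it, and 19 changed sign, in KEAP1, TXN and TXNRD1, which did not pass. Of 544 refits of list medians 29 moved beyond the spread and 53 changed sign, in 16 lists with medians of at most 0.19 in size, such as mitosis (-0.01 without replicate 3 of siACAT1-2) and interferon-stimulated genes (0.05 without replicate 2 of siACAT1-2). Why the counts moved was not tested. With 3 libraries per group small differences in low genes are not resolved.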
